A study of Mus musculus with 10 samples.

Results

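Gene loci that each carried 30 or more peaks of the deposited peak set were examined in mouse retinal explants kept in low or high glucose. A locus was the set of peaks that shared 1 gene symbol in the authors' annotation, which gives each peak to a single gene, and members were the autosomal peaks whose symbol occurred in 30 or more rows. This took 365 of 25400 loci (1.44%) and 17269 of 108253 peaks (16.0%), whereas 89264 autosomal peaks lay outside them. The retinas came from wild-type C57Bl/6J mice at postnatal day 28 and spent 48 hours as explants in Neurobasal-A medium that held either 5 mM or 25 mM glucose. CUT&Tag, in which an antibody brings a transposase to a modified histone so that the sequenced fragments mark its position, was performed for lactylation of lysine 18 of histone H3 (H3K18La), with 3 libraries at each glucose concentration, and for lysine 27 acetylation (H3K27Ac), with 2 at each. All 10 libraries carry the same batch label. Nothing in the labels says which retinas or mice a replicate came from, so p-values measure the spread between these libraries only. The titles and the study's methods name an H3K27Ac antibody and a Tn5 fusion, while the extraction text of the labels lists an H3K9me3 antibody and an MNase fusion, and the libraries are named here by their titles.

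Photoreceptors take up much of the glucose that reaches the retina and turn a large part of it into lactate even when oxygen is present. Lactate can be the source of a lactyl group on histone lysines, and lactylation, like acetylation at lysine 27, is found at promoters and at elements within and between genes. Genes with many such elements in neural tissue are often long ones that encode transcription factors, adhesion molecules, channels and scaffolds, and their large introns hold much of the regulatory sequence.

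The peak set was built by the authors from H3K18La libraries of developing retina, so the number of peaks of a locus reflects H3K18La in other samples and no value of the explant libraries. Values are RPKM, reads scaled to the length of the peak and to the reads of the library, and the value of a locus is the mean over its peaks weighted by their length. The RPKM denominators ranged from 1358008 to 7424470 reads. A member peak held a median of 1 to 15 reads in a library, and the smallest sum over a whole locus was 13 reads for H3K18La and 44 for H3K27Ac. Between 11.8% and 12% of H3K18La reads lay in peaks at 5 mM and 31.2% to 35.0% at 25 mM. For H3K27Ac the shares were 21.1% and 31.5% at 5 mM and 69.5% and 56.5% at 25 mM. Because this share moved with glucose, a change in RPKM holds only relative to the deposited denominators. With every library divided by its in-peak reads instead, the median log2 change of all loci went from 0.69 to -0.21 for H3K18La and from 0.70 to -0.24 for H3K27Ac, and the changes are given on both scales below for the members as a group, for Casz1 and for named loci whose sign turned. The first H3K18La library at 25 mM stood apart from the other two in its promoter signal and had the largest share of reads in peaks, so the counts of calls, the share of the strongest peaks, the promoter comparisons and Casz1 are also given without it. Over the 365 loci the 3 H3K18La libraries at 5 mM differed by no more than sampling noise (chi-square per degree of freedom 1.04 to 1.12, p from 0.0569 to 0.307), all other replicate pairs differed by more (1.85 to 11.0), and every library was kept as a replicate of its own. Signal at cell-type markers was mixed. The summed H3K27Ac level of 10 rod genes was 54.8 to 94.3 RPKM at 5 mM and 241 to 364 RPKM at 25 mM, the highest of 10 marker lists. The cone, bipolar, amacrine, horizontal and Müller glia lists summed to 7.97 to 17.6 RPKM at 5 mM and 22.3 to 37.4 RPKM at 25 mM, and the 7 ganglion cell genes with a peak to 2.50 to 6.41 and 9.25 to 9.41 RPKM. Of the other lists, the 5 retinal pigment epithelium genes with a peak summed to 2.74 to 5.29 and 6.14 to 6.62 RPKM, the 5 microglia genes to 4.73 to 5.90 and 8.20 to 9.71 RPKM, and the 5 vessel genes to 9.21 to 10.3 and 9.34 to 9.50 RPKM. At 5 mM the ganglion cell list overlapped those of pigment epithelium and microglia, and the cone, bipolar, amacrine and horizontal lists overlapped that of vessels. In such bulk tissue, fewer cells of a type and less mark per cell cannot be told apart, and the part of cell composition in the results below was not tested.

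The loci were long, intronic and mostly protein-coding. They held 30 to 197 peaks, with a median of 40, against a median of 2 over all loci. The distance from the first to the last peak ran from 75.7 kb at Tub, named for the tubby protein whose loss causes retinal degeneration in mice, to 4237 kb at Galnt2l, with a median of 343 kb. Neighbouring peaks of a locus lay a median of 4.55 kb apart. The annotated gene was longer than 100 kb for 339 of the 364 loci with a gene model, and 341 loci were protein-coding and 13 long intergenic RNAs. Of the member peaks, 80.1% were in introns, 9.83% distal intergenic, 4.48% in exons and 4.01% in promoters. The corresponding shares of the other autosomal peaks were 34.9%, 37.1%, 6.40% and 17.9%. No promoter peak was assigned to 39 of the 365 loci.

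A symbol did not always describe a single gene. Overall 89.1% of member peaks lay inside the gene they were named for, but 25 loci had less than 50% of their peaks there and 10 loci had none. The 197 peaks of Fgfr2, a receptor for fibroblast growth factors, followed a transcript model of 2961 kb. Of these peaks, 132 lay inside 15 other coding genes, among them Tacc2 (32 peaks), Ctbp2 (23), Fam53b (23) and Lhpp (21), and none was a promoter peak. All 102 peaks of Gse1 also lay inside the overlapping model Gm20388. The 145 peaks of Galnt2l were spread over an interval that contains the whole of Gse1. These 3 symbols are therefore labels of broad intervals, and their values are read as such.

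Of the 10 loci with the most peaks, 9 are shown first by the sequence at the centre of their strongest peak, chosen by the mean RPKM over all 10 libraries, so that a reader can see what kind of DNA carried the highest signal. The windows are 200 bases of the plus strand of GRCm38, at chr7:132785688-132785887 for Fgfr2, chr8:121862270-121862469 for Galnt2l, chr2:179635735-179635934 for Cdh4, chr4:151786840-151787039 for Camta1, chr10:73700862-73701061 for Pcdh15, chr8:114444896-114445095 for Wwox, chr17:86623221-86623420 for Prkce, chr8:120335882-120336081 for Gse1 and chr7:96754667-96754866 for Tenm4. Capitals mark matches on either strand to 6 motifs. These were the core of CRX and OTX2 sites (TAATCC), the related homeobox core (GATTAG), part of the NRL site (TGCTGAC), the GC box that Sp factors bind (GGGCGG), the E-box (CACGTG) and the site of AP-1 (TGACTCA). The first motif read on the reverse strand can overlap the second.
Fgfr2: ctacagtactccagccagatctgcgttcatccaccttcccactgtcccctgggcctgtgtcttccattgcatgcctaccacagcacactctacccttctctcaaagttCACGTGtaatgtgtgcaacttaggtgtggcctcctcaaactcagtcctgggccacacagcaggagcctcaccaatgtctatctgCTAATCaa
Galnt2l: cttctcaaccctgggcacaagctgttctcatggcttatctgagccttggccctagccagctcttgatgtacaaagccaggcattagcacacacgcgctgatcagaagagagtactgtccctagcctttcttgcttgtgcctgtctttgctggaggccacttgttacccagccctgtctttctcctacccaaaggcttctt
Cdh4: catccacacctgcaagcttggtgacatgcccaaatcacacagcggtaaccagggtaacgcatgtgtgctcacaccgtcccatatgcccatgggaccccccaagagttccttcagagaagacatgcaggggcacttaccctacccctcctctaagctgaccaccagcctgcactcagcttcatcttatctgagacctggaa
Camta1: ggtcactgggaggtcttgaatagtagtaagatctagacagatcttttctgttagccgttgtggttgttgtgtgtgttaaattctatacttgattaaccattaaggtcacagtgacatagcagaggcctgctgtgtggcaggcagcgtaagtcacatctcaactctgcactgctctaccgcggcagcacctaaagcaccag
Pcdh15: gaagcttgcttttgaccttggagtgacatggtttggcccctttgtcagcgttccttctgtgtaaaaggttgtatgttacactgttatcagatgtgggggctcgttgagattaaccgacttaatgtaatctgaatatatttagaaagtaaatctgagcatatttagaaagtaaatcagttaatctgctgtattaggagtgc
Wwox: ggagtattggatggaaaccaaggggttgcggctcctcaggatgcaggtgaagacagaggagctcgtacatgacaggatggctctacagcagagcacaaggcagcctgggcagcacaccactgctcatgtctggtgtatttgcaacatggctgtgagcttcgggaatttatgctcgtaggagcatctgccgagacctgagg
Prkce: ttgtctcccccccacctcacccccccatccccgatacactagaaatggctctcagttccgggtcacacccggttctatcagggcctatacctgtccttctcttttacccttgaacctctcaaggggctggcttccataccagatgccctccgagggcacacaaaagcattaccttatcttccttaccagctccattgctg
Gse1: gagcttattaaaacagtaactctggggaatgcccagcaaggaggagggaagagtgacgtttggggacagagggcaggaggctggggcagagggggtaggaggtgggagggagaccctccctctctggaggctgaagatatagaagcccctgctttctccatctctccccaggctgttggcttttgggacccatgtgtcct
Tenm4: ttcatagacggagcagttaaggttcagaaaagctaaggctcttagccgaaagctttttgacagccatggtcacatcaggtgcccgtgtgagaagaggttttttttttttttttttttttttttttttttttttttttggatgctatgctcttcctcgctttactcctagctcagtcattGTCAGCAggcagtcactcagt

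Matches were few in these windows. Fgfr2 had CACGTG and, on the reverse strand, GATTAG, Tenm4 had TGCTGAC on the reverse strand, and the other 7 windows had none. They held 156 to 189 distinct 6-base words among 195 positions. Over all members, the central 300 bases of the strongest peak held fewer than 150 distinct 6-base words at 7 of 365 loci, of which 1 is among the 10 with the most peaks and is not shown. Within the central 300 bases of all member peaks, TAATCC occurred in 11.0%, GATTAG in 9.03%, TGCTGAC in 6.68%, GGGCGG in 5.80%, CACGTG in 4.75% and TGACTCA in 5.56%. Over the other autosomal peaks the shares were 11.5%, 8.94%, 6.11%, 12.8%, 4.89% and 5.58%. Within introns alone the GC box was present in 4.46% of member and 5.26% of other windows, and TAATCC in 11.2% and 13.6%. The median GC content of whole peaks was 48.6% in members and 49.8% in the others.

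The 10 loci with the most peaks differed in how far H3K18La changed. Casz1, Pcdh15, Cdh4 and Rbms3 show the range of patterns along a locus. Cdh4 encodes R-cadherin, an adhesion molecule, and had 2.16, 2.36 and 2.33 RPKM at 5 mM and 6.28, 6.57 and 6.98 RPKM at 25 mM over its 124 peaks. All 3 libraries at 25 mM lay well above all 3 at 5 mM, with a log2 change of 1.35 ± 0.10 (SE) and an adjusted p of 6.60e-04 in limma. Of its peaks, 99.2% were higher at 25 mM. Its H3K27Ac values were 2.26 and 3.76 RPKM at 5 mM and 6.28 and 5.64 RPKM at 25 mM, a log2 change of 0.91 ± 0.32 (SE) with an unadjusted limma p of 0.0350, and those groups did not overlap either. Scaled to the reads in peaks, the H3K27Ac change of Cdh4 became -0.22.

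Pcdh15, a protocadherin of sensory cells that is mutated in Usher syndrome, had H3K18La values of 1.64, 1.71 and 1.67 RPKM at 5 mM and 5.61, 5.60 and 6.07 RPKM at 25 mM. The log2 change was 1.52 ± 0.10 (SE, adjusted p = 6.60e-04, limma), the second largest of these 10 loci. Signal was far from even along its 1616 kb, with most of the strong peaks deep inside the gene. The strongest of the 114 peaks, chr10:73700469-73701453 in an intron 601 kb from the start of its assigned transcript, had H3K18La values of 6.26, 2.94 and 0.748 RPKM at 5 mM and 38.2, 19 and 15.4 RPKM at 25 mM (log2 change 2.90 ± 0.65, SE, adjusted p = 0.0267, limma). Its H3K27Ac values were 7.75 and 9.64 RPKM at 5 mM and 60.7 and 33.4 RPKM at 25 mM.

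Gse1 had the largest change among these 10. Its H3K18La values were 2.55, 2.41 and 2.36 RPKM at 5 mM and 11.1, 9.08 and 8.60 RPKM at 25 mM, a log2 change of 1.77 ± 0.13 (SE, adjusted p = 6.60e-04, limma). The H3K27Ac values were 3.87 and 6.09 RPKM at 5 mM and 17.5 and 12.9 RPKM at 25 mM. In both marks every library at 25 mM was above every library at 5 mM, and 99.0% of the peaks were higher in each mark. Prkce, which encodes the epsilon isoform of protein kinase C, went from 2.01 to 6.39 RPKM in H3K18La (log2 change 1.46 ± 0.10, SE, adjusted p = 6.60e-04, limma). Camta1, a calmodulin-binding transcription activator, went from 2.02 to 5.96 RPKM (log2 change 1.36 ± 0.10, SE). Ntm, the adhesion molecule neurotrimin, went from 1.59 to 4.62 RPKM (log2 change 1.30 ± 0.10, SE), and Fgfr2 from 1.41 to 4.29 RPKM (log2 change 1.32 ± 0.12, SE). These 4 changes lay between 1.30 and 1.46, a range close to their standard errors.

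Tenm4, a teneurin that guides neuronal connections, was at the low end of the 10. Its H3K18La values were 0.838, 0.876 and 0.865 RPKM at 5 mM and 1.66, 1.70 and 1.41 RPKM at 25 mM, with a log2 change of 0.62 ± 0.18 (SE, adjusted p = 0.0485, limma). Leaving out 1 library raised that adjusted p to as much as 0.144. Galnt2l went from 1.06 to 2.20 RPKM (log2 change 0.78 ± 0.17, SE, adjusted p = 0.0166, limma) and Wwox, a WW domain oxidoreductase, from 1.18 to 3.03 RPKM (log2 change 1.08 ± 0.12, SE, adjusted p = 0.00164, limma). When scaled to reads in peaks, Tenm4, Galnt2l and Wwox had negative H3K18La changes of -0.41, -0.32 and -0.07.

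**Figure D1:**
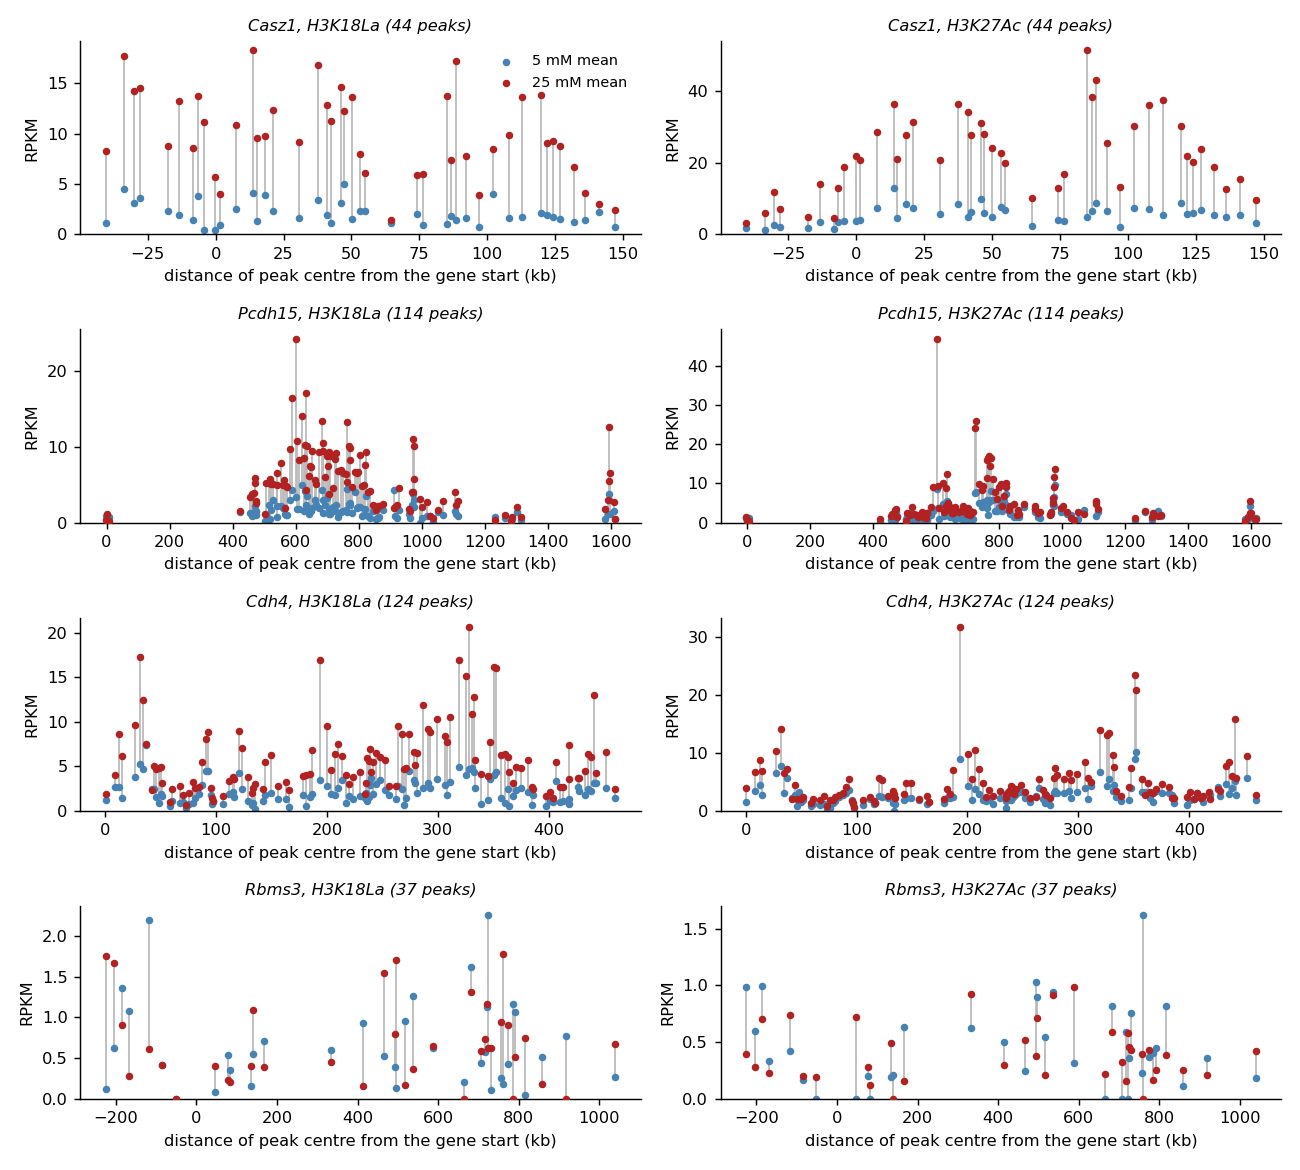
Mean RPKM of each peak at 5 mM (blue) and 25 mM glucose (red) plotted against the distance of the peak centre from the gene start in kb, for H3K18La (left) and H3K27Ac (right) at Casz1, Pcdh15, Cdh4 and Rbms3. A grey line joins both means of a peak. All 44 Casz1 peaks were higher at 25 mM in both marks, while the 37 Rbms3 peaks went in both directions and reached at most 1.78 RPKM at 25 mM in H3K18La.

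The first comparison across all loci asked how many of the 365 changed with glucose. For H3K18La, 326 passed an adjusted p of 0.05 in limma and all 326 were higher at 25 mM, against 29.9% of all loci called higher and 0.232% called lower. All 365 had a positive log2 change, and in 363 every library at 25 mM exceeded every library at 5 mM (46.6% of all loci). The 2 loci whose groups overlapped were Arhgap15 and Fggy. The linear ratio of the group means ran from 1.16 to 4.91, with a median of 2.76. The median log2 change was 1.20, against 0.69 over all loci. Between 278 and 307 members were called when 1 library was left out, 300 of them without the first library at 25 mM. These directions hold on the deposited scale. Scaled to the reads in peaks, 185 loci were positive and 180 negative with a median of 0.01, against -0.21 over all loci, and 0 were called by limma (95 at an unadjusted p under 0.05, and 16.3% of all loci). Under quantile normalization 299 were positive and 0 were called (25 at an unadjusted p under 0.05, and 10.8% of all loci). With each library centred on its median, 179 were called, against 10.6% of all loci, and 337 were positive, with a median log2 change of 0.61 against 0.10 over all loci.

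The precision of a locus grew with its peaks. The median standard error of the log2 change was 0.13 among the members and 0.34 over all loci. The share called higher in H3K18La was 15.0% for loci with 1 peak, 27.5% with 2 to 4, 48.2% with 5 to 9, 65.7% with 10 to 19, 76.2% with 20 to 29 and 89.3% with 30 or more, while the median standard error fell from 0.47 to 0.13. The size of the change also differed between these classes. The pooled H3K18La ratio of 25 mM over 5 mM was 2.33 in loci with 1 peak and 2.98 in the many-peak loci, and the pooled level at 5 mM was 0.912 and 1.57 RPKM. For H3K27Ac the pooled ratio, in which strong peaks weigh most, was 2.71 and 2.25, whereas the median log2 change of single loci was 0.76 in loci with 1 peak, 0.63 with 5 to 9 and 0.88 with 30 or more. Of the 22 loci with exactly 30 peaks, 20 were called, with a median log2 change of 1.10, and of the 25 autosomal loci with 29 peaks, 18 were called, with a median of 1.04. Among those with 30 peaks, Cdh2 (N-cadherin) had a log2 change of 1.23 ± 0.11, Etv6 (an ETS family repressor) 1.13 ± 0.18, Dst (dystonin, a linker of cytoskeletal filaments) 1.01 ± 0.13 and Ccser1 1.04 ± 0.13 (SE).

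**Figure D2:**
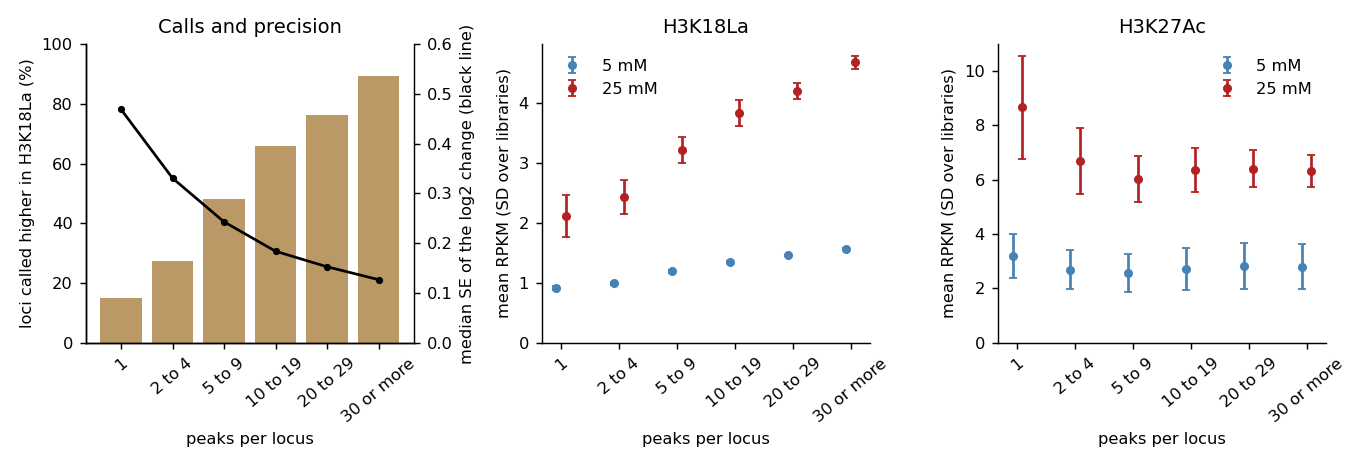
Loci grouped by their number of assigned peaks. Left, percent of loci called higher in H3K18La by limma (bars) and median standard error of the log2 change (black line). Middle and right, length-weighted mean RPKM of H3K18La and H3K27Ac at 5 mM (blue) and 25 mM (red), with the SD over libraries (3 or 2 per group). Calls went from 15.0% to 89.3% as the median error fell from 0.47 to 0.13.

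For H3K27Ac, 0 of the 365 loci passed the same limma test, as did 0 of all 25400 loci (0%). In simulated reads this fit on 2 libraries a group did not recover the changes that had been put in, so the count of 0 does not show that H3K27Ac did not change. At an unadjusted p under 0.05 there were 241 members, all of them higher at 25 mM, against 44.3% of all loci that were higher at this p. That count rested on single libraries. It was 4 without the first library at 25 mM, 31 without the second, 94 without the first at 5 mM and 245 without the second, in fits that leave 1 library in a group and assume that it varies like the others. The smallest adjusted p was 0.0671. With only loci of a mean RPKM of at least 1 in the fit, 226 of 340 tested members were called (62.2% of all loci tested), voom on the recovered reads called 221 of 365 (44% of all loci) and robust moderation 206 (44.4% of all loci). Of the members, 362 had a positive change and in 354 both libraries at 25 mM were above both at 5 mM (65.6% of all loci). The median log2 change was 0.88, against 0.70 over all loci. Scaled to the reads in peaks, 80 were positive and 285 negative, with a median of -0.22 against -0.24 over all loci.

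Loci with a larger change in 1 mark had a larger change in the other. Over the 365 loci, the log2 changes of the marks had a Pearson r of 0.90, given as a description because loci share libraries and depth. The direct test of whether the change differed between the marks called 0 loci in limma (5 members and 1666 of all loci, 6.56%, at an unadjusted p under 0.05) and 0 under voom (70 members and 7.09% of all loci at an unadjusted p under 0.05). This fit also missed most of the differences between marks put into simulated reads, and its count of 0 does not show that the marks changed alike. The ratio was larger in H3K18La than in H3K27Ac at 356 loci, and the median difference of the log2 changes, H3K27Ac minus H3K18La, was -0.30, against -0.04 over all loci. That median depended on the 2 H3K27Ac libraries at 5 mM. It was -0.54 without the first and -0.06 without the second, and the 5 members at an unadjusted p under 0.05 became 120 and 0. Leaving out any other library gave 0 to 7.

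**Figure D3:**
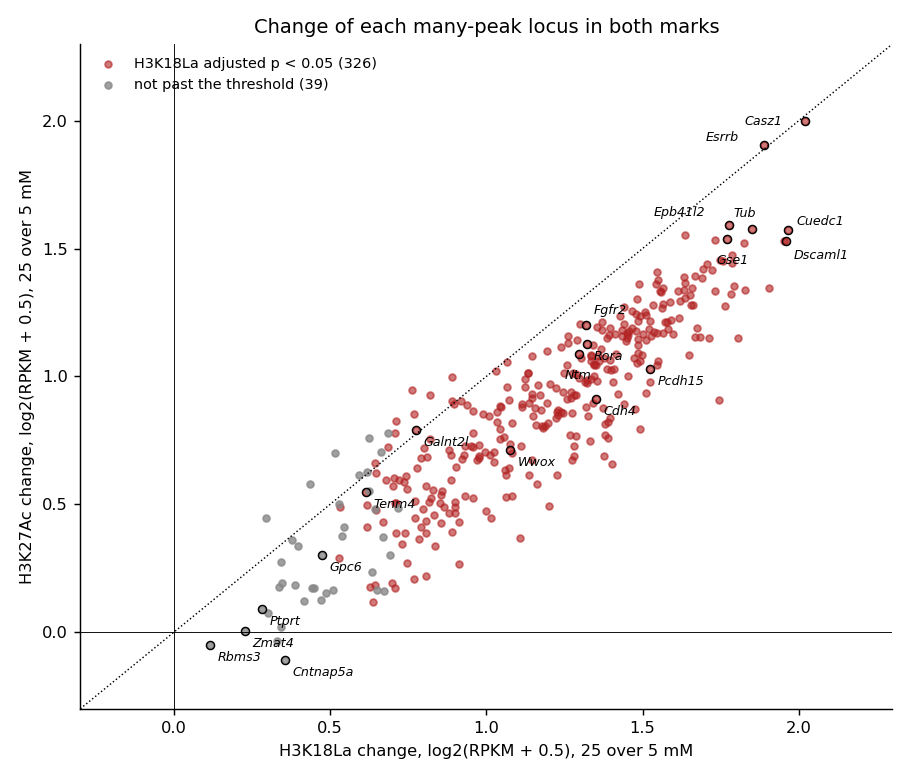
Log2 change of each of the 365 loci from 5 to 25 mM glucose in H3K18La (x axis) and H3K27Ac (y axis), on the log2(RPKM + 0.5) scale of the deposited values, with the dotted line of equal change. Red points passed an adjusted p of 0.05 in H3K18La (326), grey points did not (39), and circles mark the labelled loci. All points lie to the right of 0 and most lie below the line, whereas after scaling to reads in peaks 180 loci were negative in H3K18La and 285 in H3K27Ac.

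The largest changes were at Casz1, a zinc-finger transcription factor that sets the fates of retinal progenitors. Its H3K18La values were 2.17, 1.79 and 2.00 RPKM at 5 mM and 12.5, 8.67 and 8.07 RPKM at 25 mM, a log2 change of 2.02 ± 0.18 (SE, adjusted p = 8.81e-04, limma). Its H3K27Ac values were 3.72 and 6.48 RPKM at 5 mM and 26.2 and 17.1 RPKM at 25 mM, a log2 change of 2.00 ± 0.43 (SE, unadjusted p = 0.00481, limma). The first library at 25 mM was the highest in each mark, but all libraries at 25 mM exceeded all at 5 mM. The strongest promoter peak of the locus, chr4:148888695-148890195, had H3K18La values of 0.316, 0.771 and 1.96 RPKM at 5 mM and 24.4, 10.0 and 6.74 RPKM at 25 mM (log2 change 3.18 ± 0.57, SE, adjusted p = 0.0141, limma) and H3K27Ac values of 3.39 and 6.11 RPKM at 5 mM and 74.0 and 28.7 RPKM at 25 mM. Without the first H3K18La library at 25 mM, the log2 change was 1.84 ± 0.12 for the locus and 2.67 ± 0.52 for the promoter peak (SE, adjusted p = 0.00271 and 0.0387, limma). Scaled to reads in peaks, the whole locus had log2 changes of 0.75 in H3K18La and 0.79 in H3K27Ac.

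Other loci near the top were Cuedc1, Dscaml1, the long intergenic RNA 4930543I03Rik and Zbtb7c in H3K18La, and Esrrb, Epb41l2, Tub and Cuedc1 in H3K27Ac. Dscaml1, an adhesion molecule of retinal synaptic layers, went from 2.21 to 10.1 RPKM in H3K18La, and 61 of its 84 peaks were called higher. Cuedc1, whose protein has a ubiquitin-binding CUE domain, went from 1.88 to 8.95 RPKM. The highest level of all members at 25 mM was that of 4930543I03Rik, at 3.52, 3.77 and 4.12 RPKM at 5 mM and 16.6, 15.3 and 16.5 RPKM at 25 mM. Of its 33 peaks, 24 were distal intergenic and 32 were called higher in H3K18La. Zbtb7c, a zinc-finger factor, went from 2.92 to 12.3 RPKM. Esrrb, a nuclear receptor that supports rod survival, went from 4.21 to 17.0 RPKM in H3K27Ac (log2 change 1.91 ± 0.39, SE, unadjusted p = 0.00390, limma), and Epb41l2, a protein of the membrane skeleton, from 5.91 to 18.1 RPKM. Tub had the highest H3K27Ac level of the members, 7.07 and 12.8 RPKM at 5 mM and 33.4 and 26.0 RPKM at 25 mM, and its strongest peak was a promoter peak. At Casz1, Cuedc1, Zbtb7c, Tub and 4930543I03Rik, every peak was higher at 25 mM in both marks, as was so for 19 loci in all.

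At the other end were loci with little signal at either glucose level. Rbms3, an RNA-binding protein, had H3K18La values of 0.589, 0.549 and 0.620 RPKM at 5 mM and 0.673, 0.710 and 0.649 RPKM at 25 mM, the smallest change of all members (log2 change 0.12 ± 0.24, SE, adjusted p = 0.746, limma). Its H3K27Ac values were 0.464 and 0.387 RPKM at 5 mM and 0.418 and 0.367 RPKM at 25 mM, and 48.6% of its peaks were higher in each mark. Zmat4, a zinc-finger protein, went from 0.607 to 0.794 RPKM in H3K18La and from 0.653 to 0.658 RPKM in H3K27Ac. Ptprt, a receptor tyrosine phosphatase, went from 0.874 to 1.18 RPKM in H3K18La, Arhgap15, a Rac regulator, from 0.533 to 0.777 RPKM and Fggy, a carbohydrate kinase, from 0.673 to 0.964 RPKM. None of these 5 passed the test. In H3K27Ac the smallest changes besides Rbms3 and Zmat4 were -0.11 ± 0.21 at Cntnap5a (a contactin-associated surface protein), -0.04 ± 0.25 at Hs6st3 (a heparan sulfate sulfotransferase) and 0.02 ± 0.24 at St6galnac3 (a sialyltransferase), each smaller than its SE. All 8 loci lay below the lower quartile of the members at 5 mM, which was 1.08 RPKM in H3K18La and 1.36 RPKM in H3K27Ac, and the change of a locus rose with its level at 5 mM across members (Spearman correlation of the ratio 0.78 in each mark, a description over 365 loci that share libraries). The number of peaks of a member bore almost no relation to its ratio (Spearman correlation 0.05 for H3K18La and 0.07 for H3K27Ac). Its log2 change did rise with the density of peaks, counted per 100 kb (Spearman correlation 0.66 for H3K18La and 0.59 for H3K27Ac).

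By role, the loci were described with lists that were fixed with earlier results of these data known. Their counts called higher in H3K18La are to be read beside the 89.3% of all 365 members and 29.9% of all loci that were called higher. The adhesion, axon guidance and channel lists had lower shares called than all members, and these differences were not tested. Of 155 transcription and chromatin regulators, 34 were members, and all 34 were called higher in H3K18La, with a median log2 change of 1.22. Rora, a nuclear receptor, went from 1.85 to 5.37 RPKM, Thrb, the thyroid hormone receptor that patterns cone opsins, from 1.93 to 5.57 RPKM, and Zfp536, a zinc-finger protein, from 2.21 to 7.40 RPKM. Of 93 adhesion and synaptic surface proteins, 31 were members and 25 were called, with a median of 0.93. Of 66 genes of axon guidance and receptor signalling, 12 were members and 8 were called, with a median of 1.21, and within them Alk, a receptor tyrosine kinase, went from 2.47 to 8.93 RPKM and Igf1r, the receptor of insulin-like growth factor, from 1.68 to 4.49 RPKM, while Gpc6, a glypican, had 0.766, 0.852 and 0.870 RPKM at 5 mM and 1.27, 1.38 and 1.40 RPKM at 25 mM and was not called (adjusted p = 0.120, limma).

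Of 87 ion channels and neurotransmitter receptors, 16 were members and 12 were called, with a median log2 change of 0.78, the lowest of these lists. Itpr2, a calcium channel gated by inositol trisphosphate, went from 1.93 to 4.84 RPKM, Grik3, a kainate receptor, from 1.29 to 3.46 RPKM, Grid1, a delta glutamate receptor, from 0.972 to 2.36 RPKM, and Kcnma1, the large-conductance potassium channel, from 0.885 to 1.66 RPKM. Of 75 genes of cyclic nucleotide, calcium and lipid messengers, 19 were members and 18 were called, with a median of 1.45, the highest of the 6 role lists. Plcb4, a phospholipase C, went from 2.46 to 8.25 RPKM, Camk1d, a calmodulin-dependent kinase, from 2.05 to 6.89 RPKM, and Inpp4b, a phosphoinositide phosphatase, from 1.51 to 3.10 RPKM. Prkca, the protein kinase C that marks rod bipolar cells, was the only cell-type marker among the members and had log2 changes of 1.45 ± 0.10 in H3K18La and 1.14 ± 0.33 in H3K27Ac (SE). Of 89 genes of the cytoskeleton, scaffolds and trafficking, 33 were members and 30 were called, with a median of 1.08. Ank3, the ankyrin of axon initial segments, went from 1.64 to 4.89 RPKM, Arhgap26, a GTPase-activating protein, from 1.78 to 5.32 RPKM, and Pard3, a polarity protein, from 1.57 to 4.44 RPKM. Of 15 genes that the study names, Casz1 and the zinc-finger factor Glis1 were members. The study names Casz1 from its explants, so the direction of Casz1 is no independent evidence, and Glis1 from developing retina. Glis1 went from 2.19 to 6.23 RPKM.

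In H3K27Ac the medians of the 6 role lists were 0.94, 0.70, 0.68, 0.63, 1.14 and 0.86 in the same order, and 27, 15, 6, 5, 16 and 23 members had an unadjusted limma p under 0.05, all of them higher, against 44.3% of all loci, and these counts rest on the same single libraries. After scaling to reads in peaks the H3K18La medians became 0.03, -0.18, 0.01, -0.30, 0.19 and -0.05, against -0.21 over all loci, so the direction turned for adhesion, channels and cytoskeleton. On this scale the channel list was again the lowest and the messenger list the highest in H3K18La, whereas after quantile normalization the channel list was lowest at 0.05 and the axon guidance list highest at 0.23. The H3K27Ac medians became -0.19, -0.31, -0.35, -0.38, -0.03 and -0.23 scaled to reads in peaks. After quantile normalization their order turned round, with the channel list highest at 0.10 and the messenger list lowest at -0.06. No test between the lists was made.

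The second comparison looked at single peaks within the loci. For H3K18La, 4477 of 17269 member peaks were called higher and 14 lower by limma, against 16.8% called higher and 0.148% called lower of all peaks. At least 1 called peak was found in 354 of the 365 loci, with a median of 9 and at most 61 in a locus, at Dscaml1. The count depended on single libraries. It was 1632 without the second library at 25 mM, 2236 without the third, 2756 without the first and 2936 without the second at 5 mM. Of all 108253 peaks, these fits called 6322, 8777, 10739 and 11394. The member count was 0 after scaling to reads in peaks (1919 at an unadjusted p under 0.05, and 9.61% of all peaks). On the deposited scale, 86.9% of member peaks and 79.6% of other autosomal peaks had a higher mean at 25 mM, and in 47.4% and 34.5% all 3 libraries at 25 mM exceeded all 3 at 5 mM. In H3K27Ac, 0 member peaks were called by limma (4871 at an unadjusted p under 0.05, and 28.6% of all peaks), and 3916 higher and 17 lower of 13169 with a mean RPKM of at least 1 (33.9% of all such peaks called higher). The count at an unadjusted p under 0.05 was 884 without the first H3K27Ac library at 25 mM, 1544 without the second, 3163 without the first at 5 mM and 6437 without the second. Both marks were higher in 74.2% of member peaks and both lower in 4.76%.

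Peaks of a locus changed together only in part. The log2 changes of neighbouring peaks had a Pearson r of 0.40 in H3K18La and 0.44 in H3K27Ac over 16904 pairs, which fell to 0.18 and 0.20 at a distance of 20 peaks. Differences between loci made up 22.4% of the variance of the peak changes in H3K18La and 25.5% in H3K27Ac. These are descriptions over peaks of the same libraries.

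The change grew with the strength of a peak in the other mark. The H3K27Ac ranks came from the mean of its libraries at both glucose concentrations. They therefore include values at 25 mM, and the changes of both marks correlated across member peaks (Pearson r 0.47). The bins and the permutation p below are thus not independent of the change with glucose. When member peaks were ranked by their H3K27Ac level, the H3K18La ratio of 25 mM over 5 mM rose from 1.40 in the weakest of 10 equal bins to 4.10 in the strongest, through 2.24 in the fifth. Ranked by H3K18La, the H3K27Ac ratio rose from 1.24 to 2.81. The strongest bin held 24.8% ± 1.18 (SD, n = 3) of the H3K18La signal of the members at 5 mM and 34.1% ± 2.42 (SD, n = 3) at 25 mM, and the groups did not overlap (two-sided exact permutation p = 0.1, the lowest possible with 3 against 3). Without the first library at 25 mM it held 32.7% ± 0.39 (SD, n = 2) there. In H3K27Ac, the tenth of member peaks that was strongest in H3K18La, which is another set of peaks, held 31.4% ± 2.11 and 39.6% ± 2.03 (SD, n = 2, exact permutation p = 0.33, the lowest possible with 2 against 2). In linear terms the levels of the loci spread apart. The highest locus stood 8.25-fold above the lowest in H3K18La at 5 mM and 23.8-fold at 25 mM, and 23.4-fold and 75.6-fold in H3K27Ac.

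In most loci the strongest peak was not a promoter peak, although promoters were more frequent among the strongest peaks than among member peaks at large. It lay in a promoter at 40 loci (11.0%, against 4.01% of member peaks), in an intron at 265 (72.6%, against 80.1%) and between genes at 36 (9.86%, against 9.83%), at a median of 104 kb from the start of the assigned transcript, and it was the same peak in both marks at 179 loci. The strongest H3K18La peak was a promoter peak at 22 loci and the strongest H3K27Ac peak at 64. Alk is an example of this layout. Its strongest peak, chr17:71946968-71948703 in an intron, had H3K18La values of 4.64, 4.45 and 5.09 RPKM at 5 mM and 36.6, 21.8 and 16.3 RPKM at 25 mM (log2 change 2.20 ± 0.32, SE, adjusted p = 0.00799, limma). Its strongest promoter peak, chr17:72603012-72604859, ranked 61 of 68 and had 0.257, 0.209 and 0.398 RPKM at 5 mM and 0.551, 0.665 and 1.09 RPKM at 25 mM (adjusted p = 0.292, limma). Glis1 had a similar layout, with 5.90, 6.03 and 5.61 RPKM at 5 mM and 20.4, 23.0 and 21.1 RPKM at 25 mM in an intron at chr4:107463118-107467052 and 0.259, 0.316 and 0.402 RPKM at 5 mM and 1.94, 0.939 and 0.735 RPKM at 25 mM at its promoter. The reverse held at Cuedc1, Epb41l2, Tub, Dst, Fggy and Kcnma1, where the strongest peak was a promoter peak.

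Within the loci, promoters were compared with the other peaks. The log2 ratio of promoter over other member peaks in H3K18La averaged -0.11 ± 0.06 at 5 mM and 0.0056 ± 0.22 at 25 mM (SD over 3 libraries each), and the difference of 0.12 was within the spread between libraries (exact permutation p = 0.7, adjusted 0.7 over a family of 6). The values at 25 mM were 0.26, -0.07 and -0.17, and without the first of these libraries the difference turned to -0.01. In H3K27Ac it averaged 0.59 ± 0.037 at 5 mM and 0.96 ± 0.30 at 25 mM (SD over 2 libraries each), 0.37 higher without overlap (exact permutation p = 0.33, adjusted 0.5). The difference was 0.16 without the first H3K27Ac library at 25 mM and 0.58 without the second. These changes differed between the marks by -0.25 (exact permutation of glucose labels within each mark, p = 0.55 over 120 relabellings). Locus by locus, the promoter had the larger ratio than the rest of its locus at 173 of 326 loci in H3K18La (53.1%, against 56.0% of other loci), which fell to 144 (44.2%, against 50.6%) without the first library at 25 mM, and at 251 of 326 in H3K27Ac (77.0%, against 69.7%).

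The third comparison set the many-peak loci against all other autosomal peaks inside each library, where a scale factor cancels. Background reads do not cancel there, and the share of reads in peaks rose with glucose. The part of background in these shares was not tested. They held 20.7%, 21.3% and 21.4% of the autosomal H3K18La signal in peaks at 5 mM and 22.0%, 23.4% and 23.8% at 25 mM. Every library at 25 mM was above every library at 5 mM, with a difference of 1.92 percentage points (exact permutation p = 0.1, adjusted 0.3). For H3K27Ac the shares were 16.8% and 17.3% at 5 mM and 15.6% and 16.8% at 25 mM, a difference of -0.865 points in which the nearest libraries of the groups lay only 0.0023 points apart (exact permutation p = 0.33, adjusted 0.5), which turned to 0.204 when intron peaks alone were compared. Without the first H3K27Ac library at 25 mM it was -0.255 points and without the second -1.47. The changes of both marks differed by 2.78 points. Exact permutation of glucose labels within each mark gave an unadjusted p of 0.0167 over 120 relabellings, the smallest they can give. A change in a single mark can lower this p, so it does not test whether the marks changed alike. Among intron peaks, the log2 ratio of members over others in H3K18La averaged 0.35 ± 0.021 at 5 mM and 0.49 ± 0.029 at 25 mM (SD over 3 libraries each) without overlap (exact permutation p = 0.1, adjusted 0.3), and in H3K27Ac it averaged 0.024 ± 0.013 and 0.037 ± 0.017 (SD over 2 libraries each, exact permutation p = 0.667, adjusted 0.7). The difference between the marks there was 0.13 (exact permutation within each mark, unadjusted p = 0.0833).

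**Figure D4:**
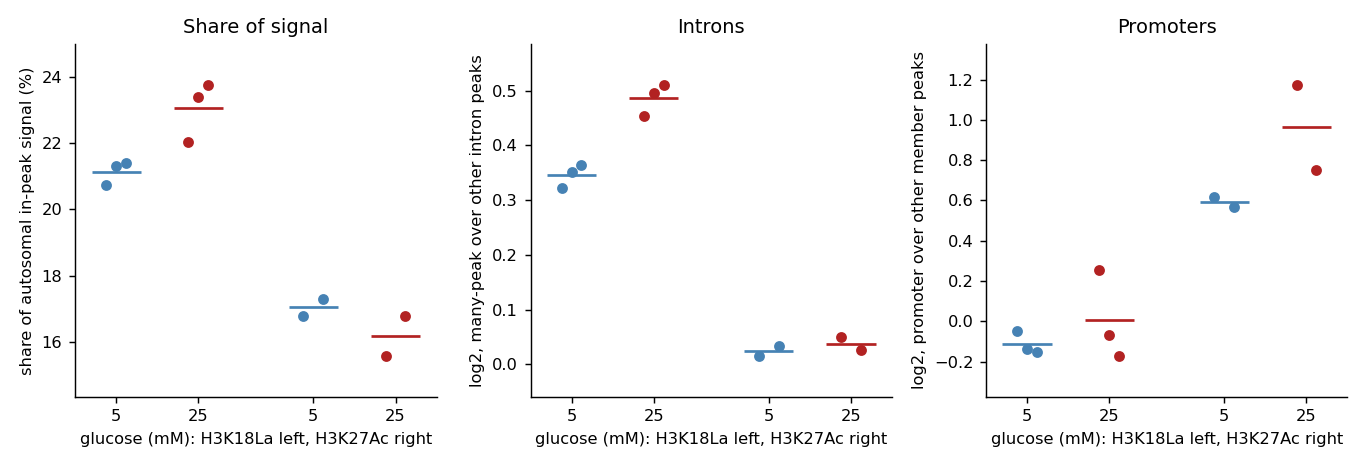
Values of each library (points) and group means (bars) at 5 mM (blue) and 25 mM glucose (red), with H3K18La on the left and H3K27Ac on the right of each panel. The panels show the percent of autosomal in-peak signal held by the many-peak loci, the log2 ratio of their intron peaks over other intron peaks, and the log2 ratio of their promoter over their other peaks. The H3K18La share was 20.7% to 21.4% at 5 mM and 22.0% to 23.8% at 25 mM, and 1 of 3 H3K18La libraries at 25 mM lay apart in the promoter panel.

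Members also differed from other peaks in their level, more so in H3K18La than in H3K27Ac, over regions that were defined by H3K18La. The members were chosen by their number of H3K18La peaks, which favours a higher H3K18La level, while H3K27Ac played no part in the choice. The p-values here therefore partly reflect how the members were chosen. The log2 ratio of the mean RPKM of members over other autosomal peaks was 0.38 to 0.63 in the 6 H3K18La libraries and -0.12 to 0.06 in the 4 H3K27Ac libraries, a difference of 0.51 (exact permutation of the marks within glucose level, p = 0.01, adjusted 0.0167 over a family of 5, the smallest that 100 relabellings can give). Among introns the difference was 0.39 and among promoters 0.50, with the same p. In both bins of non-promoter peaks that were compared at matched distance, the difference was smaller. Among non-promoter peaks 10 to 100 kb from a start site, the ratios were 0.50 to 0.76 and 0.47 to 0.65 (difference 0.05, exact permutation p = 0.16, adjusted 0.2), and among peaks at 100 to 300 kb they were 0.66 to 1.04 and 0.66 to 1.01 (difference -0.01, exact permutation p = 0.84, adjusted 0.84).

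Outside promoters, members had more of both marks than other peaks at every distance from start sites. Within 10 kb at 25 mM, H3K18La averaged 5.39 ± 0.21 RPKM in members and 3.46 ± 0.23 RPKM in other peaks (SD, n = 3). The H3K27Ac means there were 8.92 ± 0.85 and 6.32 ± 0.67 RPKM (SD, n = 2). At 100 to 300 kb, H3K18La at 25 mM averaged 4.83 ± 0.03 RPKM (SD, n = 3) over 6523 member peaks and 2.38 ± 0.01 RPKM (SD, n = 3) over 8934 other peaks. Beyond 300 kb the means were 3.41 ± 0.02 and 1.60 ± 0.04 RPKM (SD, n = 3), over 4445 and 1679 peaks. For H3K27Ac at 25 mM they were 5.90 ± 0.41 and 2.99 ± 0.11 RPKM (SD, n = 2) at 100 to 300 kb. At promoters, H3K27Ac at 25 mM averaged 11.8 ± 3.24 RPKM (SD, n = 2) in members and 11.9 ± 3.13 RPKM (SD, n = 2) in the others, a gap far smaller than the spread between libraries. The ratio of 25 mM over 5 mM in H3K18La fell with distance in members, from 3.20 within 10 kb to 2.61 beyond 300 kb, and from 2.82 to 2.03 in other peaks, on the deposited scale.

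**Figure D5:**
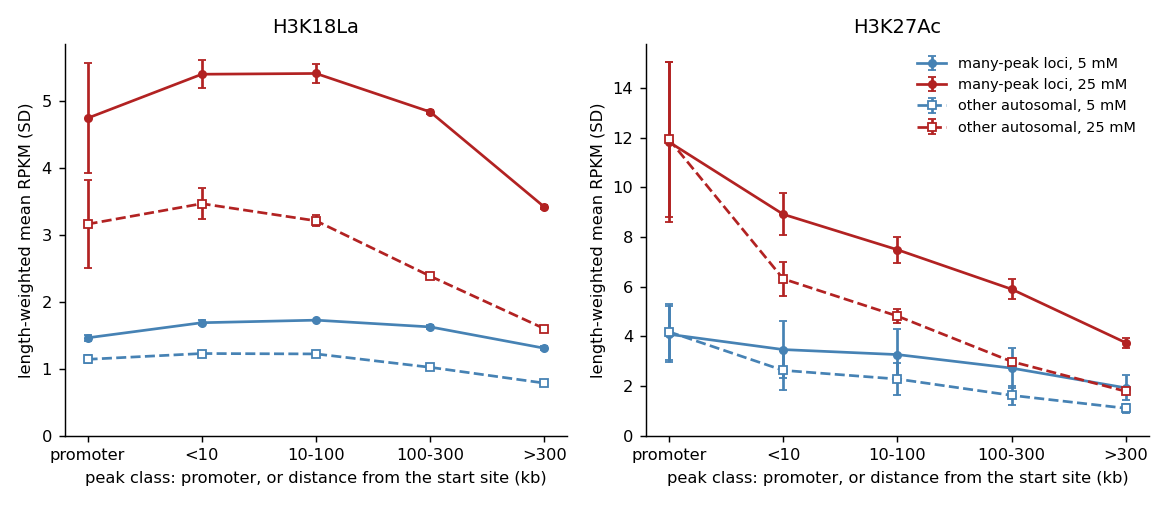
Length-weighted mean RPKM of H3K18La (left) and H3K27Ac (right) by peak class, promoters and then other peaks at rising distance from the start of the assigned transcript in kb. Filled circles and solid lines are the many-peak loci, open squares and dashed lines the other autosomal peaks, at 5 mM (blue) and 25 mM (red), with the SD over libraries. At 100 to 300 kb the H3K18La means at 25 mM were 4.83 and 2.38 RPKM.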

How the data were processed

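Retinal explants were profiled by CUT&Tag for H3K18La and H3K27Ac in 10 libraries, grouped by the sample labels. Per the study's methods and the submitters' processing notes, the authors mapped reads to GRCm38, called peaks with MACS, annotated them with ChIPseeker (1.34.1) and counted reads over 1 consensus set of 108253 H3K18La peaks of developing retina, so both marks were read over regions defined by H3K18La. The authors deposited RPKM values for every library. A second deposited table holds their own log2 fold changes, p-values, false discovery rates and group means for H3K18La, for which edgeR (3.40.2) is named, and it was not used. In the deposited RPKM columns, 100% of values came out as whole reads within 0.1 read, which gave the reads per peak and the denominators. Whether normalization factors of the authors entered the denominators is not given in the sources used here, so they are not called sequencing depth.

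Locus values were length-weighted means of RPKM. Values were tested as log2(RPKM + 0.5) with limma (3.58.1, R 4.3.3, trended eBayes), with each mark fitted on its own libraries and the difference between marks on all 10 libraries, and p-values were adjusted over all 25400 loci or all 108253 peaks at a threshold of 0.05. A fold change on this scale understates that of low features. Single values per library were compared with two-sided exact permutation tests, whose smallest p is 0.1 for 3 against 3 and 0.33 for 2 against 2. Tested on simulated reads, the locus fits recovered large H3K18La changes, a minority of the differences between marks and no H3K27Ac change, and the fits of single peaks recovered none, so a count of 0 from these fits does not show absence of change. Sequences came from GRCm38 and gene models from GENCODE M21. Descriptions were computed with Python 3.11.15 (numpy 2.4.6, pandas 2.3.3, scipy 1.17.1) and plotted with matplotlib 3.10.9.

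The members, the gene lists and the tests were chosen with earlier results of these data known. Named loci were the 10 with the most peaks, the 5 with the largest and the 5 with the smallest change in each mark, up to 4 with 30 peaks, members among the genes that the study names, and up to 4 members of each role list with the most peaks. Named peaks were the strongest peak and the strongest promoter peak of a named locus. Alternatives were another pseudocount (0.1 or 1), a minimum mean of 1 RPKM, other scalings, voom on the recovered reads, robust moderation, other limits on peak number, other subsets of peaks and leaving out each library. Leaving the first H3K18La library at 25 mM out of the share of the strongest peaks, the count of promoter ratios and the Casz1 promoter peak was chosen after seeing the data. Whether replicate numbers pair the libraries is not known. Over all loci, deviations of libraries with the same number correlated between 0.02 and 0.04 in H3K18La and by -0.08 in H3K27Ac. This check cannot exclude pairing, because most loci hold few peaks and reads. The sequence of 1 window is not reported here.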

Additional observations from a re-analysis of the deposited data

Results flagged for a closer look

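The glucose change in the many-peak loci's share of autosomal in-peak signal differed between the marks by 2.78 percentage points, H3K18La minus H3K27Ac. In an exact permutation of glucose labels within each mark the unadjusted p was 0.0167 over 120 relabellings, the smallest they can give. Because a change in a single mark can lower this p, it does not test whether the marks changed alike. The share was higher by 1.92 points at 25 mM in H3K18La, with no overlap between 3 and 3 libraries, and lower by a difference of -0.865 points in H3K27Ac, where the nearest libraries of the 2 groups lay only 0.0023 points apart. Leaving out 1 library moved the first change between 1.57 and 2.43 points and the second between -1.47 and -0.255 points. Among intron peaks alone the changes were 2.34 and 0.204 points. The parts of annotation class and of background reads in the difference between the marks were not tested.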

How the results depend on the processing

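For H3K18La loci, all calls were higher at 25 mM on the deposited scale, and 315 to 359 loci were called against 326 with the other pseudocounts, the minimum of 1 RPKM, voom, robust moderation or other subsets of peaks. Of the 320 loci with no peak inside another coding gene and at least 50% of peaks in their own, a limit chosen after seeing the data, 283 were called. The count depended on the scale, with 179 after centring each library on its median, 0 scaled to reads in peaks and 0 after quantile normalization. It was 655 with a limit of 20 peaks and 181 with a limit of 40, which change the number of loci, and 278 to 307 when 1 library was left out. For H3K27Ac loci the count of 0 became 226 with a mean RPKM of at least 1, 221 with voom, 206 with robust moderation and 3 after centring. Of all 25400 loci, centring called 1769 in H3K27Ac. For H3K18La peaks the count of 4491 became 6770 with a limit of 20 peaks, 1463 at a threshold of 0.01, 1183 after centring, 0 scaled to reads in peaks and 0 after quantile normalization, and 1632 to 4166 when 1 library was left out. For H3K27Ac peaks the count of 0 became 3933 with a mean RPKM of at least 1, 3505 with voom and 2637 with robust moderation. The test of a difference between the marks called 0 loci under each alternative run. The H3K18La promoter contrast differed by -0.00839 to 0.206 when 1 library was left out, the lowest value being without the first library at 25 mM, and the H3K27Ac share by 0.0472 on mean log2 values and 0.204 in intron peaks, the latter chosen after seeing the data. Where fewer or other features or libraries did not themselves set the value, the cause was not tested. With the replicate block, limma called 290 member loci in H3K18La and 0 in H3K27Ac (69 at an unadjusted p under 0.05). The same fits called 6310 and 1206 of all loci. Among member peaks, 2995 were called in H3K18La and 0 in H3K27Ac, and 0 differences between marks were called over loci. The labels do not say whether the replicate numbers pair the libraries. Low reads limit single peaks most, with a median of 1 to 15 reads per peak and library.

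Among the named loci, log2 changes turned sign under other scalings as follows, and the cause was not tested. Scaled to reads in peaks, the H3K18La changes were Rbms3 -0.73, Ptprt -0.71, Zmat4 -0.64, Fggy -0.61, St6galnac3 -0.57, Arhgap15 -0.55, Hs6st3 -0.53, Gpc6 -0.53, Cntnap5a -0.44, Tenm4 -0.41, Kcnma1 -0.39, Inpp4b -0.35, Galnt2l -0.32, Grid1 -0.13, Dst -0.13, Itpr2 -0.11, Ccser1 -0.0914, Wwox -0.0670, Etv6 -0.0461, Igf1r -0.0275, Grik3 -0.0208, and the H3K27Ac changes were St6galnac3 -0.80, Fggy -0.79, Zmat4 -0.76, Ptprt -0.65, Gpc6 -0.57, Inpp4b -0.50, Tenm4 -0.40, Wwox -0.35, Grik3 -0.34, Ccser1 -0.34, Arhgap15 -0.34, Cdh2 -0.29, Glis1 -0.27, Kcnma1 -0.27, Thrb -0.26, Grid1 -0.25, Galnt2l -0.25, Dst -0.23, Itpr2 -0.23, Cdh4 -0.22, Pard3 -0.19, Etv6 -0.14, Zfp536 -0.13, Arhgap26 -0.11, Pcdh15 -0.0965, Camta1 -0.0963, Igf1r -0.0777, Ank3 -0.0646, Ntm -0.0545, Rora -0.0163. Centred on the median of all loci, the H3K18La changes were Rbms3 -0.48, Zmat4 -0.36, Ptprt -0.31, Arhgap15 -0.30, Fggy -0.29, Hs6st3 -0.26, St6galnac3 -0.25, Cntnap5a -0.24, Gpc6 -0.12, and the H3K27Ac changes were Zmat4 -0.58, St6galnac3 -0.57, Fggy -0.51, Ptprt -0.50, Gpc6 -0.29, Arhgap15 -0.14, Tenm4 -0.0382, Inpp4b -0.0334. After quantile normalization, the H3K18La changes were Rbms3 -0.42, Ptprt -0.28, Zmat4 -0.26, Fggy -0.23, Arhgap15 -0.20, Hs6st3 -0.16, St6galnac3 -0.15, Inpp4b -0.11, Cntnap5a -0.0950, Gpc6 -0.0933, Itpr2 -0.0444, and the H3K27Ac changes were Cdh2 -0.30, Ccser1 -0.26, Zfp536 -0.23, Thrb -0.22, Fggy -0.19, St6galnac3 -0.19, Camta1 -0.18, Cdh4 -0.16, Igf1r -0.16, Etv6 -0.14, Zmat4 -0.14, Arhgap26 -0.13, Itpr2 -0.13, Inpp4b -0.12, Glis1 -0.0949, Plcb4 -0.0583, Ank3 -0.0405, Ptprt -0.0338, Ntm -0.0164, Wwox -0.0125. Small H3K27Ac changes also turned without promoter peaks (Fggy -0.0459, Zmat4 -0.00247), without the 3 strongest peaks (St6galnac3 -0.0167) and, as a range over leaving out 1 library, -0.20 to 0.13 at Hs6st3, -0.11 to 0.00799 at Rbms3, -0.0818 to 0.12 at St6galnac3 and -0.00994 to 0.0216 at Zmat4.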
